A study of Mus musculus with 2 samples.

Results

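The 10 genes described here are Fos, Fosb, Jun, Junb, Jund, Atf3, Egr1, Ier2, Dusp1 and Zfp36, chosen by name as members of the AP-1 transcription factor system and of the immediate early response. All 10 were present among the 27998 genes of both count matrices. Single-cell RNA was measured in 2 droplet libraries of immune cells from B16Ova tumors, a mouse melanoma line that carries ovalbumin as a model antigen, grown under the skin of the flank of female mice after injection of 250000 cells and taken at day 13. The WT library came from E8i-cre-, Tcf7 FL/FL mice and the KO library from E8i-cre+, Tcf7 FL/FL mice. Both groups therefore carry the floxed Tcf7 alleles, and only the KO mice carry the Cre, whose E8i enhancer of the Cd8a locus is active in mature CD8 T cells. TCF1, the product of Tcf7, is a transcription factor of naive and memory-like T cells. In each group 3 tumors were sorted into 4 categories (CD8 T cells, CD4 T cells, dendritic cells, and the remaining CD45-positive cells without a T cell receptor), 2000 cells of each category per tumor were mixed, and 7000 cells were loaded. The files do not name the tumor a cell came from, so each group is 1 sample: no test between groups was possible, intervals cover counting error only, and a difference of genotype cannot be told apart from a difference between the 2 libraries or their handling. The strain and the age of the mice were not given in the sources used here.

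The WT library held 1120 barcodes with 9283014 UMIs (unique molecular identifiers, 1 per captured RNA molecule) and the KO library 1219 barcodes with 11758449, with 1 barcode sequence present in both. After filters 983 WT and 1083 KO cells remained, with median totals of 6168 and 8117 UMIs. Cells were clustered without the 10 genes and named from marker genes, so each class name means cells that resemble that type. The 8 classes that had 25 or more cells in WT and in KO were compared: CD8 T cells (168 WT and 184 KO), CD4 T cells (176 and 176), T cells in which neither Cd4 nor Cd8a or Cd8b1 was captured (116 and 133), type 1 conventional dendritic cells (cDC1s, 168 and 185), type 2 (cDC2s, 54 and 104), mature dendritic cells (98 and 60), monocytes (28 and 88) and macrophages (65 and 60). In CD8 T cells the targeted gene Tcf7 was at 159 CPM in WT and 53.5 CPM in KO (CPM: UMIs of the gene per 1000000 UMIs of the summed class), a KO to WT ratio of 0.336 (95% interval 0.263 to 0.427). In naive-like CD8 T cells its ratio was 0.758 (0.533 to 1.08) and in CD4 T cells 0.636 (0.489 to 0.825). A cluster was called naive-like where all 6 naive T cell markers, Tcf7 among them, were detected. The naive-like ratio is therefore not independent of how those cells were chosen. In CD8 T cells that were neither naive-like nor cycling it was 0.232 (0.156 to 0.339). These counts come from tags whose place relative to the floxed exons was not given in the sources used here, so they do not by themselves check the deletion.

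Immediate early genes are transcribed within minutes of a stimulus from factors already present in the cell, without new protein synthesis. Several encode subunits of AP-1, a dimer of a FOS, JUN or ATF protein that binds DNA through a basic leucine zipper, and others encode the inhibitors that end the response. In T cells the stimulus is typically the antigen receptor, in myeloid cells it is often a microbial or inflammatory signal, and dissociating a tissue into single cells is itself known to raise these transcripts.

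The sequences just upstream of 3 of the genes, each holding a motif match, are given as examples. They are those of Fos and Dusp1, lower by at least 1.5-fold in 8 and 6 of the 8 compared classes, and that of Fosb, the close relative of Fos with few UMIs. Each is taken from the 200 bases before the RefSeq transcript start (build GRCm38.p6), without bases that GENCODE vM21 annotates as an exon of the gene, which leaves 200 bases for Fos, 194 for Fosb and 153 for Dusp1. They are written 5′ to 3′ along the gene, with capitals for matches to the motifs searched.
Fos, chr12:85473690-85473889, plus strand: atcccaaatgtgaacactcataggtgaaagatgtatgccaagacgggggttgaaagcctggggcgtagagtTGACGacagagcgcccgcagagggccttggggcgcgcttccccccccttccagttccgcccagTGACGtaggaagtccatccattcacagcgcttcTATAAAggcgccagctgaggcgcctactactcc
Fosb, chr7:19310052-19310245, minus strand: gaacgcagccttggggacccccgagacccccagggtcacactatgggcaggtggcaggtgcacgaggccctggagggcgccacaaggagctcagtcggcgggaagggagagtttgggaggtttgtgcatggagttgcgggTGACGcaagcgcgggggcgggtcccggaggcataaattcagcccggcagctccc
Dusp1, chr17:26508520-26508672, minus strand: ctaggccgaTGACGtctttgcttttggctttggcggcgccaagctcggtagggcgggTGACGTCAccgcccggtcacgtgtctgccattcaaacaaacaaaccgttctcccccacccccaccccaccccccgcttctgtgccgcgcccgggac

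The motifs were TGACG on either strand (the core of the cAMP response element bound by CREB and ATF factors), TGANTCA (the AP-1 element; its reverse complement is the same pattern), the CArG box bound by serum response factor, searched by name as a palindromic pattern, and TATAAA on the gene's strand. RefSeq promoters were found for 8 of the 10 members. Egr1 and Ier2 had none and were not searched. TGACG was present in 5 of the 8 (Fos, Fosb, Junb, Atf3 and Dusp1), against 15.7% of all 32851 promoter windows of the same length. Fos had it 129 and 66 bases before the start, the latter followed by TATAAA 33 bases before it, and Fosb had it 60 bases before the start. Atf3 had it 7 bases before the RefSeq start, inside bases that GENCODE annotates as an exon of the gene. Dusp1 had matches beginning 191, 143 and 140 bases before the start, the last 2 being overlapping matches on opposite strands of 1 palindrome. The CArG box was found in Zfp36 alone, 58 bases before the RefSeq start and inside the first exon of a longer GENCODE transcript, and in 1.18% of all windows. TATAAA was found in Fos alone among these 8 and in 6.27% of all windows. No member window held TGANTCA, which 5.48% of all windows did, and those of Jun and Jund held none of the motifs searched. The Jund window (chr8:70697539-70697738) does not adjoin the GENCODE start of Jund at 70698949. The bases just before that start were therefore not searched. These matches describe letters in the window and were not set against any binding measurement.

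In mm10 coordinates (the GENCODE vM21 gene models) the FOS genes are Fos (chromosome 12, 85473890 to 85477273) and Fosb (chromosome 7, 19302696 to 19310051), and the JUN genes are Jun (chromosome 4, 95049034 to 95052222), Junb (chromosome 8, 84974484 to 84978718) and Jund (chromosome 8, 70698949 to 70700616). Atf3 lies on chromosome 1, 191170296 to 191218039, Egr1 on chromosome 18, 34859823 to 34864984, Ier2 on chromosome 8, 84661331 to 84662852, Dusp1 on chromosome 17, 26505590 to 26562128 and Zfp36 on chromosome 7, 28376784 to 28380253. All are protein coding. Junb, Jund and Ier2 share chromosome 8, and Fosb and Zfp36 share chromosome 7.

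Across the 8 classes the genes were lower in the KO library nearly throughout. A gene was counted as measured in a class where the mean of the 2 libraries was at least 50 CPM. Of 80 pairs of gene and class, 65 were measured. The KO to WT ratio was below 1 in 65 of the 65, at least 1.5-fold below in 39 and at least 1.5-fold above in 0, and the counting interval lay wholly below 1 in 57. Because that minimum favours a gene through whichever library is higher, the 15 pairs under it also count: over all 80 pairs 76 ratios were below 1 and 4 above, with 62 intervals wholly below 1 and 0 wholly above. The 4 above 1 were Fosb in monocytes and mature DCs and Egr1 in CD8 T cells and mature DCs. Some settings did not keep every measured ratio below 1. With classes from a marker gate instead of clusters, 8 of 9 were below 1 in cDC2s, monocytes and macrophages and 6 of 7 in mature DCs. With CPM averaged over single cells it was 5 of 6 in CD8 T cells, 7 of 8 in CD4 T cells and 8 of 9 in monocytes. Without cycling cells it was 6 of 7 in CD8 T cells.

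The count itself was largest in cDC1s and macrophages, and each is given beside the share of all measured genes of the same class. In cDC1s 8 of 9 measured members were at least 1.5-fold lower, where 2.14% of all measured genes were. In macrophages it was 8 of 9, against 6.94% of all genes, and in T cells with neither co-receptor 6 of 8 against 11.6%. In CD4 T cells 5 of 7 were lower against 4.49%, in cDC2s 4 of 9 against 3.81%, and in mature DCs 4 of 8 against 4.59%. The counts were smallest in CD8 T cells, the class in which the Cre is active, with 2 of 6 against 4.0%, and in monocytes, with 2 of 9 against 9.52%. That place of CD8 T cells depended on the setting: 4 were lower when CPM was averaged over single cells or classes came from a marker gate, where mature DCs had 2 and monocytes 1, and 4 without cycling cells. No measured member was at least 1.5-fold higher in any of the 8 classes, where the share of all measured genes was 0.922% in cDC1s, 3.73% in CD4 T cells, 4.46% in mature DCs, 4.57% in cDC2s, 5.98% in CD8 T cells, 6.37% in macrophages, 7.13% in T cells with neither co-receptor and 7.19% in monocytes.

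The median log2 ratio of the measured members was -1.26 in T cells with neither co-receptor, -0.97 in macrophages, -0.93 in CD4 T cells, -0.81 in cDC1s, -0.55 in cDC2s, -0.53 in mature DCs, -0.49 in CD8 T cells and -0.38 in monocytes. With CPM averaged over single cells, the median in T cells with neither co-receptor was -0.64 over 7 measured genes, no longer the lowest, beside -0.99 in macrophages and -0.77 in cDC1s. CD8 T cells then had -0.70, CD4 T cells -0.58 and mature DCs -0.25. Standardised over clusters CD4 T cells had -0.52. A marker gate gave -1.23 in CD4 T cells and -0.69 in CD8 T cells, so the order of the classes depended on the setting. On class sums, the median over all measured genes lay between -0.07 and 0.09 in the same classes. Scaling by TMM instead of the class total moved the ratios by 0.10 in T cells with neither co-receptor and by 0.13 in monocytes (log2), where the members' medians became -1.16 and -0.25, and by -0.01 to 0.06 in the other classes. Median depth per cell was similar between libraries in most classes but not in macrophages (4983 UMIs in WT and 8114 in KO) or CD8 T cells (4773 and 6474), and the part of depth in those ratios was not tested. The median mitochondrial share of a cell was 1.88% in WT and 1.86% in KO over all cells. Cycling genes (6 of 6 with a UMI) summed to 221 CPM in WT and 726 CPM in KO in T cells with neither co-receptor, and without cycling cells the members' median there was -0.76. T cell markers (5 found of 6 listed) summed to 679 CPM in WT and 368 CPM in KO in macrophages, 222 CPM in WT and 79.2 CPM in KO in cDC1s and 104 CPM in WT and 5.75 CPM in KO in mature DCs, where 3 of the 5 had a UMI in KO and elsewhere all did. Mature DC markers (7 found, 7 with a UMI in WT and 5 in KO) summed to 1093 CPM in WT and 239.5 CPM in KO in macrophages, monocyte markers (7 of 7) to 1523 CPM in WT and 2967 CPM in KO there, and the macrophage markers (7 of 7) to 7198 CPM in WT and 9905 CPM in KO. Neutrophil markers (5 found, 5 with a UMI in WT and 4 in KO) summed to 861 CPM in WT and 895 CPM in KO macrophages. The next highest sum of neutrophil markers in a compared class was 62.8 CPM, in KO monocytes. In mature DCs the monocyte markers summed to 371 CPM in WT and 76.7 CPM in KO, with Chil3 and Ace at 0 in both libraries. The part of these markers in the members' ratios was not tested.

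**Figure D1:**
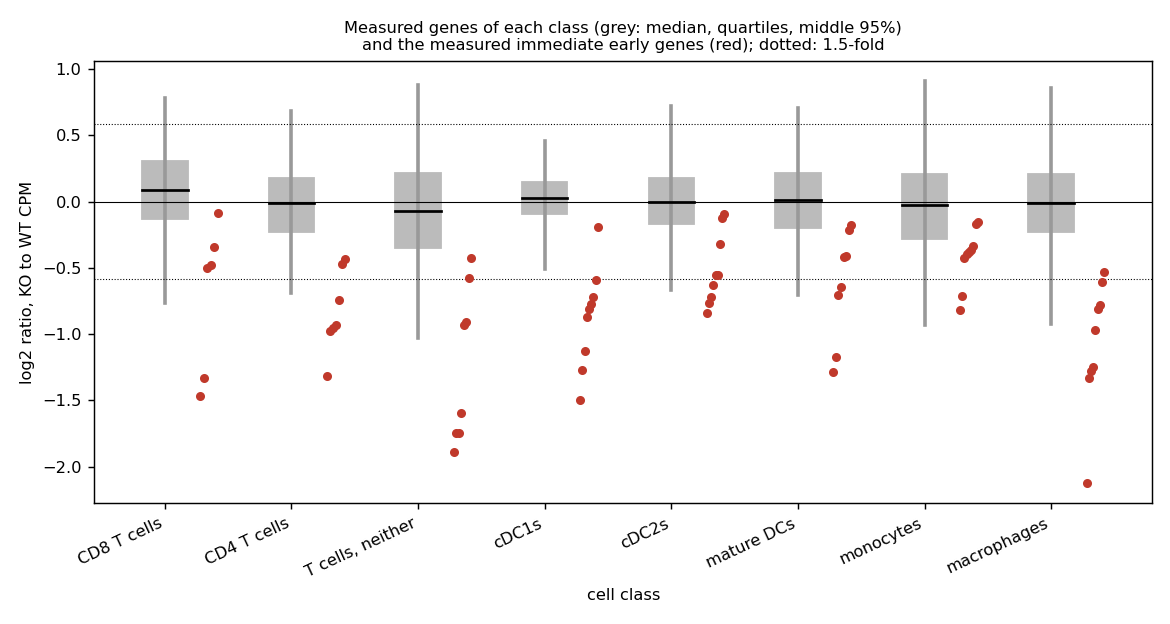
The log2 ratio of KO to WT CPM (vertical axis) in the 8 compared classes, for all measured genes (grey box and line: quartiles and middle 95%, black bar: median) and for the measured immediate early genes (red points); dotted lines mark 1.5-fold. Every red point lies below 0 while the black bars lie between -0.07 and 0.09.

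**Figure D2:**
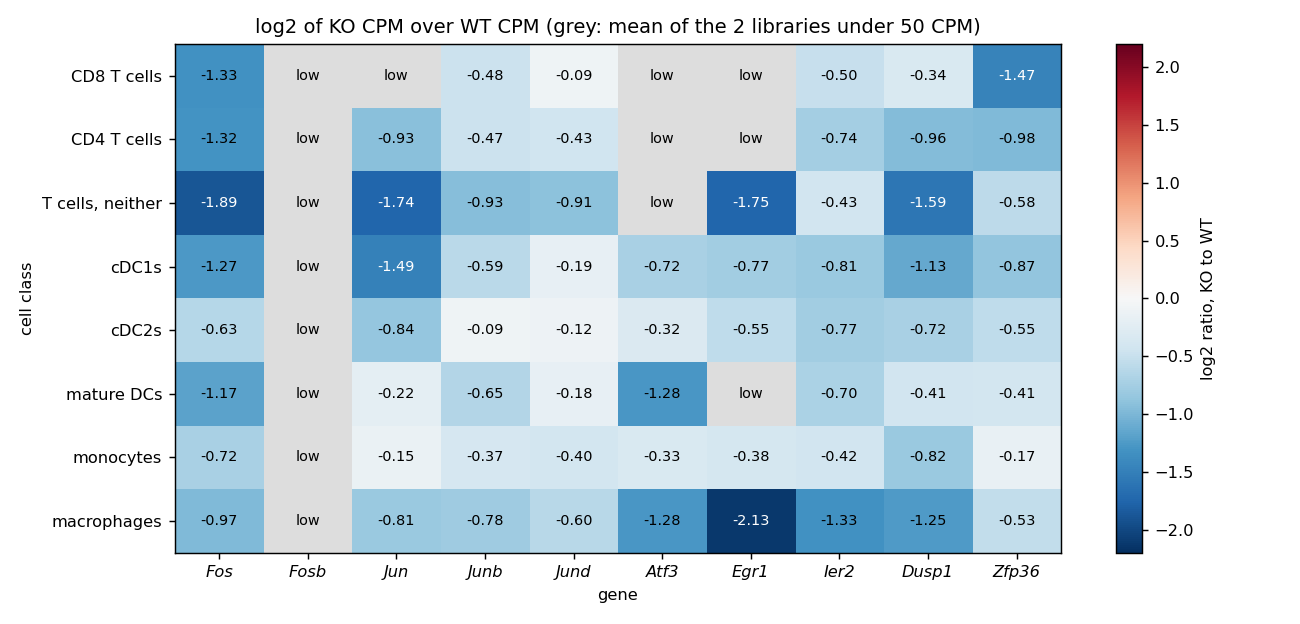
The log2 ratio of KO to WT CPM for each gene (columns) in each compared class (rows), with the value written in the cell; blue is lower in KO and grey marks pairs with a mean under 50 CPM. Fos is at least 1.5-fold lower in 8 of 8 classes, and the most negative cell is Egr1 in macrophages at -2.13.

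Fos, which encodes the FOS subunit of AP-1, was the member most uniformly lower: its ratio was at least 1.5-fold below 1 in 8 of 8 classes. In WT the monocytes, cDC1s, macrophages and cDC2s were above every T cell class, and mature DCs were not. Monocytes were highest at 1495 CPM, followed by cDC1s at 1329, macrophages at 949.7 and cDC2s at 510.4. T cells with neither co-receptor stood at 289, CD4 T cells at 197, mature DCs at 138 and CD8 T cells at 108 CPM. Each step in that order exceeded counting error except the last, between mature DCs and CD8 T cells. The KO library kept the order of the 4 highest classes, at 911, 552, 486 and 329.6 CPM. Its other 4 lay between 43.1 CPM in CD8 T cells and 78.9 in CD4 T cells, with no neighbours differing beyond counting error. The ends of that range did differ, CD4 T cells having 1.83-fold (1.36 to 2.47) the CD8 level.

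Within the dendritic cells the contrast was wide in both libraries: cDC1s had 9.60-fold (7.96 to 11.7) the Fos level of mature DCs in WT and 8.99-fold (6.35 to 13.2) in KO. Maturation of a dendritic cell is marked by Ccr7 and Fscn1, which are among the markers that named this class. The KO to WT ratio of Fos was lowest in T cells with neither co-receptor, 0.270 (95% interval 0.186 to 0.387), and highest in cDC2s, 0.646 (95% interval 0.565 to 0.738). CD8 T cells gave 0.397 (0.299 to 0.525), CD4 T cells 0.401 (0.312 to 0.513), cDC1s 0.415 (0.392 to 0.440) and mature DCs 0.443 (0.290 to 0.661). Monocytes gave 0.609 (0.538 to 0.690) and macrophages 0.511 (0.442 to 0.591). In CD4 T cells a single KO cell held 48 of the 100 Fos UMIs, and without the top cell of each library the ratio was 0.244.

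Fosb, whose product also pairs with JUN proteins, was under 50 CPM in every compared class. Its WT levels ran from 13.1 CPM in CD4 T cells to 37.1 in macrophages and its KO levels from 8.68 in CD4 T cells to 23.7 in monocytes, and no neighbouring classes differed beyond counting error in either library. The largest count was in cDC1s, where 95 WT and 72 KO UMIs gave a ratio of 0.671 (95% interval 0.487 to 0.921). In CD8 T cells it was 0.488 (0.268 to 0.878) and in cDC2s 0.469 (0.262 to 0.834), while the intervals of the other classes held 1.

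**Figure D3:**
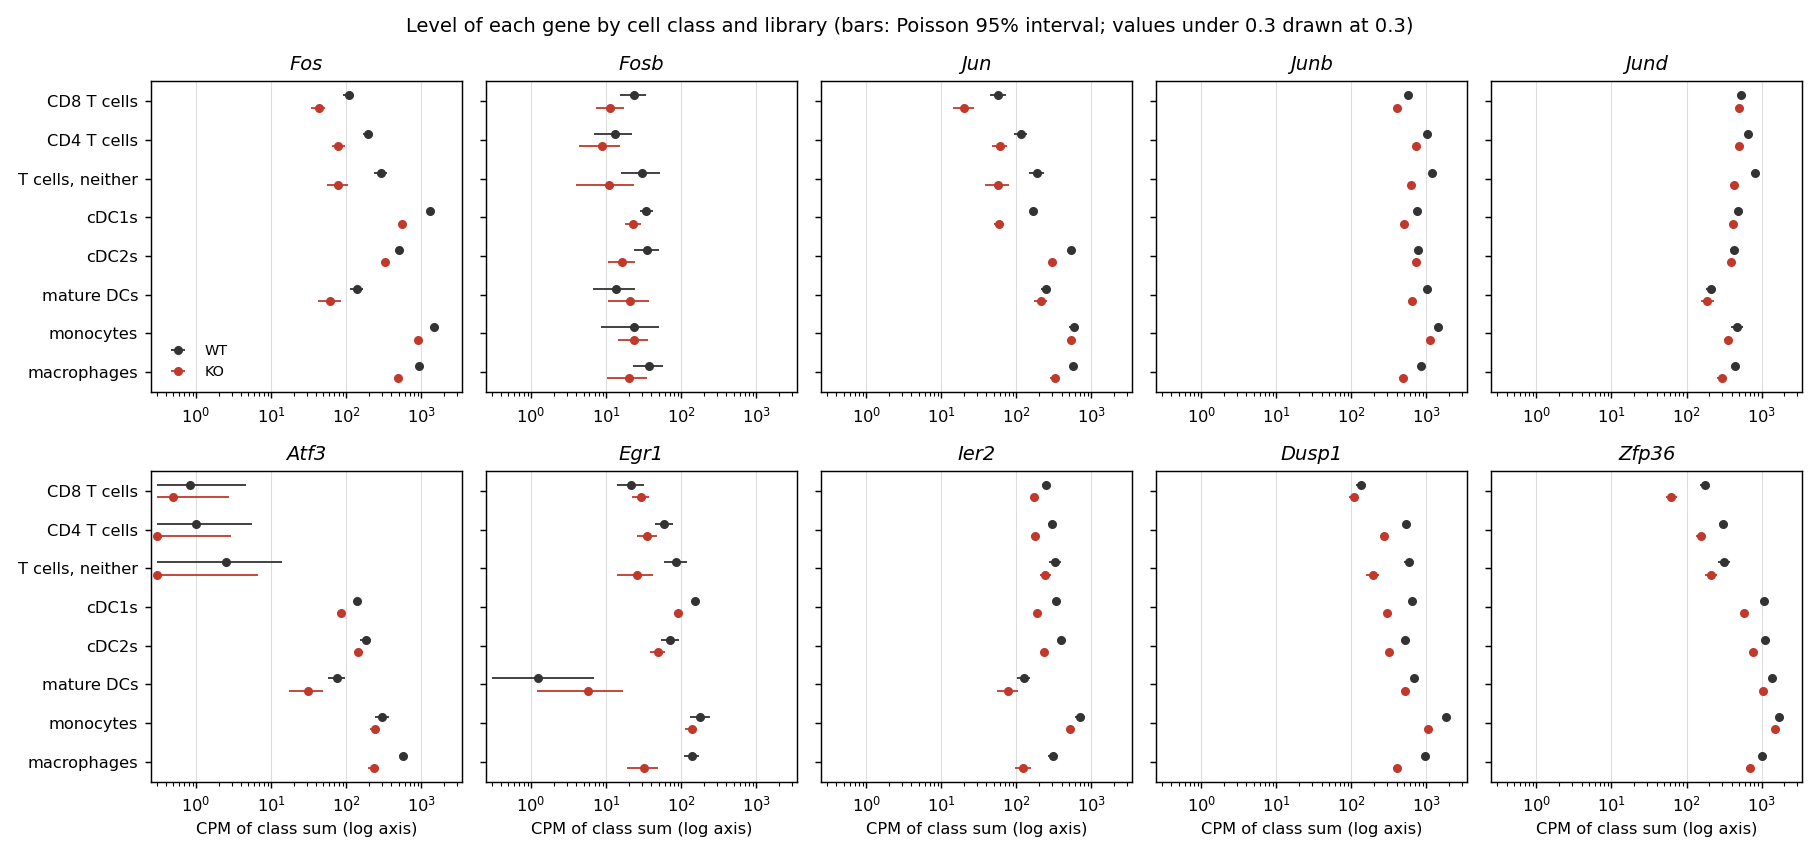
The level of each gene (CPM of the class sum, log axis) in the 8 compared classes, with WT in dark grey, KO in red and bars for the exact Poisson 95% interval. Fos and Dusp1 reach their highest levels in monocytes (1495 and 1845 CPM in WT), Jund is more even, and Atf3 is near 0 in the T cell classes.

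Jun, the gene of the founding JUN subunit, followed a different class order from Fos. In WT, monocytes (590.4 CPM), macrophages (573) and cDC2s (536) did not differ beyond counting error, and cDC1s, high in Fos, held 165 CPM. cDC2s had 3.24-fold (2.83 to 3.71) the cDC1 level in WT and 5.09-fold (4.28 to 6.08) in KO, the opposite direction to Fos, for which cDC2s had 0.384-fold (0.346 to 0.426) and 0.597-fold (0.539 to 0.660). Jun was lowest in CD8 T cells, at 56.7 and 19.8 CPM in WT and KO, a mean below the 50 CPM minimum.

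Of the 7 classes in which Jun was measured, 5 were at least 1.5-fold lower in KO. T cells with neither co-receptor (189 CPM in WT and 56.3 CPM in KO) had a ratio of 0.299 (95% interval 0.190 to 0.459), and cDC1s, at 58.7 CPM in KO, one of 0.355 (0.297 to 0.422). Without the top cell of each library, T cells with neither co-receptor had 122 CPM in WT and 50.9 CPM in KO, a ratio of 0.418, and cDC1s a ratio of 0.359. CD4 T cells gave 0.526 (0.388 to 0.709), cDC2s 0.557 (0.487 to 0.638) and macrophages 0.569 (0.474 to 0.681). In mature DCs (245 CPM in WT and 211 CPM in KO) the ratio was 0.861 (0.676 to 1.09), and in monocytes (590.4 and 532 CPM) 0.901 (0.748 to 1.09). Both of these intervals hold 1.

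Junb, whose product is the JUN subunit most associated with activated and effector T cells, was high in every class, with a WT range from 561 CPM in CD8 T cells to 1445 in monocytes. T cells with neither co-receptor came second at 1189, and mature DCs (1006) and CD4 T cells (1003) did not differ beyond counting error. It was at least 1.5-fold lower in KO in 4 of 8 classes: T cells with neither co-receptor at 0.525 (0.456 to 0.605), macrophages at 0.581 (0.501 to 0.674), mature DCs at 0.639 (0.561 to 0.726) and cDC1s at 0.665 (0.623 to 0.711). CD8 and CD4 T cells gave the smaller differences 0.717 (0.647 to 0.796) and 0.723 (0.660 to 0.792), monocytes 0.775 (0.687 to 0.876), and in cDC2s (762 and 714 CPM) the interval held 1, at 0.937 (0.848 to 1.04).

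Jund stood apart from the rest. It is the JUN gene usually expressed without stimulation, and it was highest in T cells rather than in monocytes. In WT the order from the highest was T cells with neither co-receptor (812 CPM), CD4 T cells (667) and CD8 T cells (536), then cDC1s (479.9), monocytes (466), macrophages (447) and cDC2s (425), which did not differ between neighbours, with mature DCs lowest at 214. In KO, CD8 T cells (504) and CD4 T cells (494) were highest and mature DCs again lowest (189.9). The ratio was at least 1.5-fold below 1 in 2 of 8 classes, 0.532 (0.448 to 0.631) in T cells with neither co-receptor and 0.658 (0.540 to 0.800) in macrophages, and its interval held 1 in CD8 T cells at 0.942 (0.852 to 1.04), cDC2s at 0.920 (0.804 to 1.05) and mature DCs at 0.885 (0.685 to 1.14). With classes taken from a marker gate instead of clusters, the macrophage ratio was 1.12.

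Atf3, a stress-induced AP-1 partner that often represses its targets, was nearly confined to the myeloid classes among the 8 compared. Its WT levels were 564 CPM in macrophages, 303 in monocytes, 182 in cDC2s, 139 in cDC1s and 74.8 in mature DCs, each step beyond counting error. The 3 T cell classes together held 3 WT UMIs and 1 KO UMI, and no T cell class exceeded 2.51 CPM. The share of cells with an Atf3 UMI, after thinning each cell to 2000 UMIs, was 46.4% of WT macrophages and 0.0639% of WT CD8 T cells (unthinned 63.1% and 0.595%).

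Atf3 was at least 1.5-fold lower in KO in 3 of the 5 classes where it was measured: mature DCs at 0.410 (95% interval 0.221 to 0.721), macrophages at 0.413 (0.336 to 0.505) and cDC1s at 0.607 (0.517 to 0.712). In macrophages that was 564 CPM in WT and 233 CPM in KO; KO macrophages did not differ from KO monocytes (240.4 CPM) beyond counting error. In monocytes the ratio was 0.793 (0.608 to 1.04) and in cDC2s 0.801 (0.646 to 0.994).

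Egr1, a zinc finger factor induced through serum response factor, was highest in monocytes (179 CPM in WT and 137 CPM in KO) and cDC1s (154 and 90.1 CPM) and nearly absent from mature DCs, with 1 WT and 3 KO UMIs. It had the lowest ratio of any measured pair, 0.229 (95% interval 0.131 to 0.382) in macrophages (138 CPM in WT and 31.6 CPM in KO). In T cells with neither co-receptor the ratio was 0.297 (0.147 to 0.569) on 34 WT and 14 KO UMIs, and without the top cell of each library it was 0.158, now with a mean under 50 CPM. cDC1s gave 0.585 (0.501 to 0.682), cDC2s 0.682 (0.476 to 0.981) and monocytes 0.769 (0.542 to 1.11), and in CD8 T cells, under the minimum, 26 WT and 58 KO UMIs gave 1.32 (0.821 to 2.19).

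Ier2, a small nuclear protein gene of the same response, was highest in monocytes (703 CPM in WT and 525 CPM in KO) and lowest in mature DCs (125 and 76.7 CPM). It was at least 1.5-fold lower in KO in 5 of 8 classes, at 0.398 (0.299 to 0.525) in macrophages, 0.570 (0.514 to 0.633) in cDC1s, 0.588 (0.504 to 0.687) in cDC2s, 0.599 (0.501 to 0.714) in CD4 T cells and 0.614 (0.415 to 0.893) in mature DCs. The other 3 classes lay between 0.706 and 0.746, with intervals below 1.

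Dusp1 and Zfp36 act on the brake side of the response: DUSP1 is a phosphatase that inactivates p38, JNK and ERK kinases, and ZFP36 (tristetraprolin) destabilises AU-rich messengers such as Tnf. Dusp1 was highest in monocytes, at 1845 CPM in WT and 1044 CPM in KO, with 1.93-fold (1.70 to 2.19) the macrophage level in WT, and lowest in CD8 T cells at 136 and 108 CPM. CD4 T cells had 3.88-fold (3.24 to 4.65) the CD8 level in WT and 2.52-fold (2.12 to 3.01) in KO. The Dusp1 ratio was at least 1.5-fold below 1 in 6 of 8 classes: 0.331 (0.261 to 0.419) in T cells with neither co-receptor, 0.421 (0.360 to 0.490) in macrophages, 0.457 (0.421 to 0.495) in cDC1s, 0.515 (0.448 to 0.591) in CD4 T cells, 0.566 (0.506 to 0.634) in monocytes and 0.607 (0.532 to 0.694) in cDC2s. It was 0.750 (0.646 to 0.869) in mature DCs and 0.791 (0.642 to 0.975) in CD8 T cells.

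Zfp36 split the classes into a high myeloid and a low T cell group in both libraries. In WT the 5 myeloid classes lay between 999 CPM in macrophages and 1697 in monocytes and the 3 T cell classes between 174 and 317, and in KO between 586 and 1509 against 62.9 and 212. Unlike Fos, Zfp36 was high in mature DCs (1379.9 CPM in WT). It was at least 1.5-fold lower in KO in 3 of 8 classes, CD8 T cells at 0.361 (95% interval 0.287 to 0.452), CD4 T cells at 0.507 (0.422 to 0.609) and cDC1s at 0.547 (0.516 to 0.580). The smallest difference was in monocytes, 1697 CPM in WT and 1509 CPM in KO, a ratio of 0.889 (0.797 to 0.993).

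The T cells were also divided by state within a class. In naive-like CD8 T cells (43 WT and 48 KO) Junb and Jund were lower in KO. Junb was at 1207 CPM in WT and 580.5 CPM in KO with a ratio of 0.481 (95% interval 0.382 to 0.602) and Jund at 0.496 (0.353 to 0.692). Jun rested on 18 WT and 11 KO UMIs there, 92.5 CPM in WT and 54.1 CPM in KO. Zfp36 was at 0.508 (0.343 to 0.745). In the CD8 T cells that were neither naive-like nor cycling (112 and 111), the Jund interval held 1, at 0.970 (0.860 to 1.10), while Fos was at 0.240 (0.155 to 0.363), Jun at 0.288 (0.167 to 0.484) and Zfp36 at 0.358 (0.262 to 0.486). The cycling CD8 T cells (13 and 25) went the other way for some genes. Junb there was 188 CPM in WT and 345 CPM in KO, a ratio of 1.83 (95% interval 1.33 to 2.57), and Dusp1 74.6 and 135 CPM, a ratio of 1.81 (1.08 to 3.17). Egr1 had 2 WT and 28 KO UMIs, 16 of them in 1 KO cell. Without the top cell of each library Junb was 151 CPM in WT and 269.5 in KO. The CD8 T cells that were neither naive-like nor cycling came from several clusters. A T cell cluster with Gzma and Gzmk among its leading genes held 76 WT and 41 KO cells. Another, with Gzmc and Prf1, held 34 WT and 89 KO cells. The median depth of this subset was 4773 UMIs in WT and 7649 in KO. The part of this mix and of depth in its ratios was not tested.

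Among CD4 T cells the naive-like cells (23 WT and 34 KO) had Fos at 508 CPM in WT and 82.7 CPM in KO, a ratio of 0.163 (95% interval 0.0728 to 0.331), with Zfp36 at 1.03 (0.690 to 1.56). CD4 T cells outside the naive-like, regulatory and cycling states (92 and 91) had Fos at 0.263 (0.171 to 0.397) and Zfp36 at 0.359 (0.257 to 0.497). Regulatory T-like cells (54 and 37) varied by gene. The intervals held 1 for Junb at 0.890 (0.757 to 1.05), Ier2 at 0.901 (0.638 to 1.26) and Dusp1 at 0.837 (0.690 to 1.01). Egr1 was 81.6 CPM in WT and 38.1 CPM in KO, a ratio of 0.467 whose interval also held 1, with 17 of its 31 WT UMIs in a single cell. Their Fos ratio was 1.38 (0.935 to 2.02), but 48 of its 53 KO UMIs lay in a single cell, without which Fos was 24.4 CPM in KO against 136 in WT without its own top cell. The regulatory cells held Zfp36 at 0.639 (0.460 to 0.877). Differences between these states were not tested.

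In cDC1s the cycling cells (32 WT and 42 KO) and the non-cycling cells (136 and 143) shared the low KO levels of Fos, with ratios of 0.442 (0.391 to 0.499) and 0.410 (0.384 to 0.438), and of Dusp1, with 0.369 (0.307 to 0.442) and 0.487 (0.445 to 0.532). Egr1 was lower in the non-cycling cells, at 0.542 (0.456 to 0.644), and its interval held 1 in the cycling cells, at 0.862 (0.597 to 1.24). Atf3 was at 0.587 (0.493 to 0.698) and 0.821 (0.528 to 1.28) in the same order.

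The classes with too few cells to be compared are given as levels. Plasmacytoid DCs (17 WT and 11 KO) had Fos at 685 CPM in WT and 153 CPM in KO, Dusp1 at 413 and 38.3 CPM and Zfp36 at 1270.1 and 359.8 CPM, and in WT the Jun level was 1492 CPM, above every compared class. NK cells (18 and 28) had Fos at 180.1 and 62.1 CPM and Dusp1 at 480.1 and 149 CPM, with Jund at 528 and 589.5 CPM and Ier2 at 324 and 366 CPM. B cells numbered 7 and 9, and melanoma cells, with Junb at 77.4 and 19.4 CPM, 20 and 12. T cells with both co-receptors (20 and 20) had Junb at 457 and 522 CPM. Cells with markers of both T cells and cDC1s (28 and 13) stayed unnamed and had Fos at 857 and 269 CPM.

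At the level of single cells the medians were lower in KO in 8 of 8 compared classes. Among cells with at least 2000 UMIs, the median UMIs of the 10 genes per 10000 was 46.6 in WT and 26.9 in KO cDC1s, 89.8 and 59.9 in monocytes, 47.3 and 21.9 in macrophages, 37.1 and 30.6 in cDC2s and 31.6 and 24.5 in mature DCs. In T cells it was 17.1 and 11.5 for CD8, 28.9 and 19.6 for CD4 and 33.2 and 17.5 for cells with neither co-receptor. With every cell thinned to 2000 UMIs, the expected share of cells with a Fos UMI was 67.6% in WT and 51.9% in KO cDC1s, and 20.7% and 9.08% in CD8 T cells (10 WT and 7 KO CD8 T cells were too shallow). Unthinned, the shares were 88.1% and 83.8%, and 37.5% and 21.2%. For Junb the thinned share was 61.3% and 46.8% in CD8 T cells and 85.4% and 81.0% in monocytes. No class is known to lack these transcripts apart from Atf3, so a background share from free RNA was not measured for the others.

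**Figure D4:**
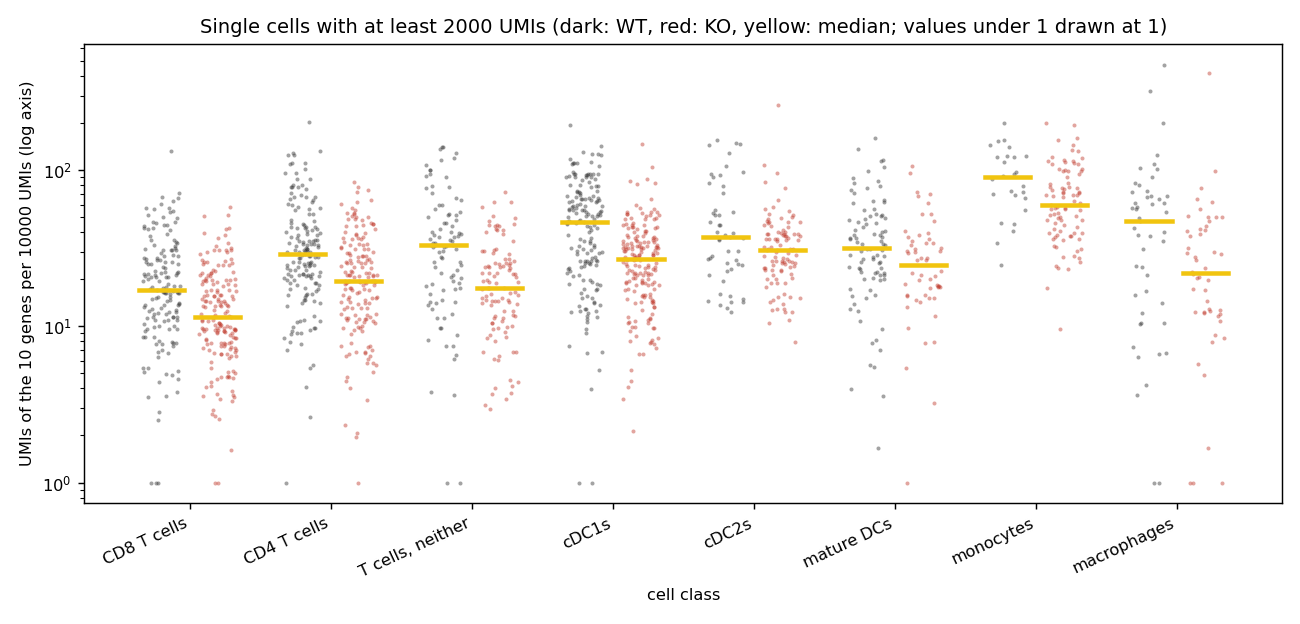
UMIs of the 10 genes per 10000 UMIs of the cell (log axis) for single cells with at least 2000 UMIs in the 8 compared classes, WT in dark grey and KO in red, with a yellow bar at the median. The KO median lies below the WT median in 8 of 8 classes, for example 26.9 against 46.6 in cDC1s, while the cells of the 2 libraries overlap throughout.

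Across the cells of 1 class and library the strength of correlation between the genes varied by class and library. The highest Spearman correlation of a pair, over cells that share a library, was that of Dusp1 and Zfp36 in macrophages, 0.750 over 49 WT cells and 0.690 over 50 KO cells. In cDC1s it was Fos and Dusp1, 0.679 over 166 WT cells and 0.440 over 184 KO cells. The median over the 45 pairs in cDC1s was 0.333 in WT and 0.147 in KO. In CD8 T cells the median over 21 pairs was 0.115 and 0.0644. The other T cell classes in WT, with medians of 0.141 in CD4 T cells and 0.149 in T cells with neither co-receptor and highest values of 0.434 and 0.451, were close to the KO cDC1s. Counts in T cells were sparse.

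A further list of 28 immediate early genes that are not members, such as the nuclear receptor gene Nr4a1 and the antiproliferative gene Btg2, varied by class. The share of all measured genes of the class is given in brackets. Of the list's measured genes, 9 of 12 were at least 1.5-fold lower in T cells with neither co-receptor (11.6%). The count was 6 of 10 in CD8 T cells (4.0%), 7 of 14 in CD4 T cells (4.49%) and 8 of 14 in macrophages (6.94%). It was 4 of 11 in cDC1s (2.14%), 5 of 12 in mature DCs (4.59%) and 0 of 13 in cDC2s (3.81%). In monocytes 3 of 16 were lower (9.52%) and 3 higher (7.19%). In macrophages 1 was higher (6.37%). The list's median log2 ratio was -0.79 in CD8 T cells, -0.79 in T cells with neither co-receptor, -0.64 in macrophages, and -0.54 in CD4 T cells. In cDC1s it was -0.45, and it was closest to 0 in mature DCs at -0.17, in cDC2s at -0.08 and in monocytes at 0.07. The 3 with the largest differences in CD8 T cells were Klf2, a quiescence and homing factor, at 329 CPM in WT and 139 CPM in KO with a ratio of 0.424 (0.362 to 0.495), Btg2 at 0.463 (0.371 to 0.577) and Ier5 at 0.527 (0.405 to 0.686).

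The heat shock genes, a list of 11 chaperones that tissue dissociation is also known to raise, did not share that direction. In CD4 T cells 5 of 8 measured were at least 1.5-fold higher in KO, against 3.73% of all measured genes, and 0 were lower. The list's median log2 ratio there was 0.79. In monocytes 4 of 8 were higher, against 7.19%. T cells with neither co-receptor had 3 of 9 higher (7.13% of all genes) and 1 lower (11.6%). The cDC2s had 3 of 9 higher (4.57%) and 1 lower (3.81%), and macrophages 1 of 8 higher (6.37%) and 1 lower (6.94%). In CD8 T cells 1 of 8 was higher, against 5.98% of all measured genes. It was Hspd1, the mitochondrial chaperone, at 202 CPM in WT and 358 CPM in KO with a ratio of 1.77 (1.53 to 2.06). Hsp90ab1 was at 1.38 (1.32 to 1.44) and Dnajb1 at 0.772 (0.627 to 0.953) there. The list's median was 0.31 in cDC1s, 0.35 in cDC2s, 0.07 in mature DCs and 0.03 in macrophages. The part of sample handling in the members' ratios was not tested.

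Of the 17 MAP kinase and serum response genes that act upstream of the members, 4 to 7 were measured per class. At most 1 of them passed 1.5-fold in any class, too few to set beside the shares of all genes given above (2.14% to 11.6% lower and 0.922% to 7.19% higher). In CD8 T cells Map2k3, a p38 activator, was at 1.69 (1.26 to 2.28), Map2k1 at 0.746 (0.549 to 1.02) and Map2k2 at 1.21 (1.01 to 1.45). Among the other AP-1 family genes, Batf at 1.15 (0.934 to 1.42) and Atf4 at 1.23 (0.933 to 1.65) were measured in CD8 T cells and neither passed 1.5-fold. Of the other dual specificity phosphatases, Dusp2 at 0.866 (0.755 to 0.995) and Dusp5 at 1.11 (0.847 to 1.45) did not pass it there. ZFP36 relatives and known AU-rich targets were mixed: in CD8 T cells the chemokine gene Ccl3 was at 426 CPM in WT and 942 CPM in KO, a ratio of 2.21 (2.003 to 2.44), with Zfp36l1 at 0.551 (0.451 to 0.673) and Zfp36l2 at 0.682 (0.600 to 0.774). In cDC2s 4 of 5 measured genes of that list were at least 1.5-fold lower, against 3.81% of all measured genes.

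**Figure D5:**
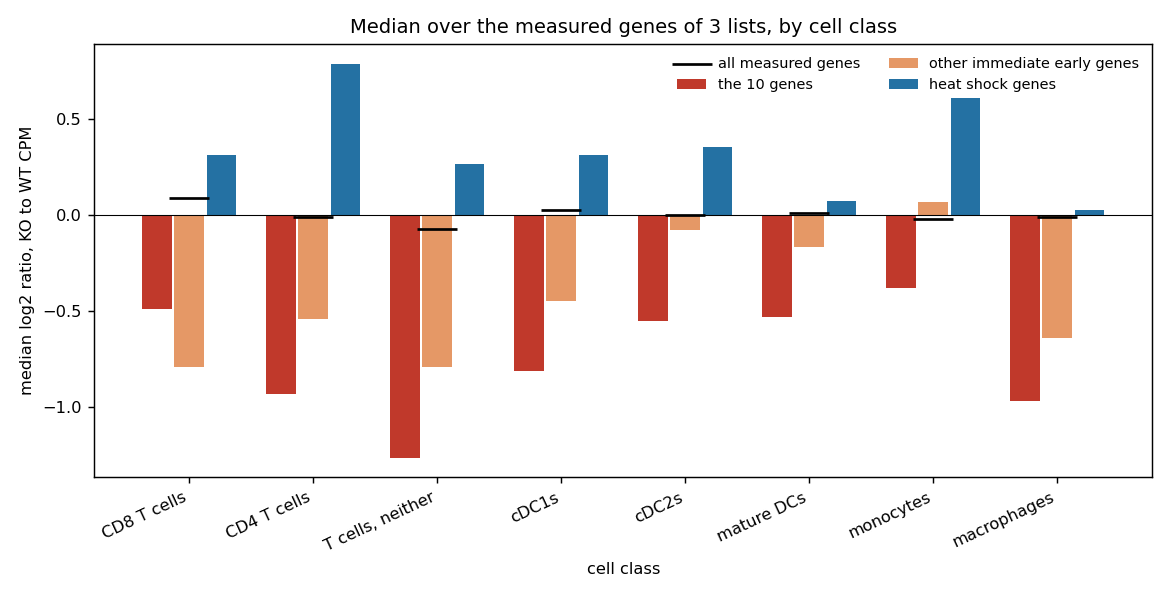
The median log2 ratio of KO to WT CPM (vertical axis) over the measured genes of 3 lists in the 8 compared classes, with a black bar for the median of all measured genes. The 10 genes lie below 0 in 8 of 8 classes, the other immediate early genes in 7 of 8, and the heat shock genes at or above 0, up to 0.79 in CD4 T cells.

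Over the 16 class sums (8 classes in each of 2 libraries, which share their depth and composition), the genes whose log2(CPM + 10) followed that of Fos most closely among 2684 ranked were Plekho2 (Pearson r 0.94), Actr3 (0.92), Mbnl2 (0.92), Epn1 (0.90) and Anxa1 (0.89). For Jund they were Anxa6 (0.93), Il16 (0.92) and Cd48 (0.92), and for Atf3 Rnf130 (0.98), Wfdc17 (0.98) and Hexa (0.98). These are descriptions over classes.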

How the data were processed

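The deposited values are whole-number UMI counts per gene and cell barcode, for 2 pooled 10x libraries. The submitters' processing notes name mm10 and Cell Ranger 1.3, while the file headers give a software version of 3.0.2. Cells with at least 500 UMIs and 300 genes and at most 10% mitochondrial UMIs were kept, and Scrublet calls (expected 6%; 5 WT and 3 KO cells) were left out. Cells were clustered with scanpy 1.11.5 (2000 variable genes without the 10 genes, the gene lists, mitochondrial genes, antigen receptor genes and Tcf7; 30 components, 15 neighbours, Leiden resolution 1.6, set after seeing that resolution 1 joined plasmacytoid DCs with cDC2s), giving 23 clusters. A cluster was named where at least 3 markers were detected, and T cells were divided by Cd4, Cd8a and Cd8b1 UMIs.

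Counts were summed per class and library. Levels carry exact Poisson 95% intervals and ratios exact conditional binomial 95% intervals, which do not cover variation between mice. A ratio past 1.5-fold at a mean of at least 50 CPM was counted. All 10 genes are named in every class; of each other list the 3 largest absolute log2 ratios in CD8 T cells, and the genes most correlated with Fos, Jund and Atf3, are named. The genes, lists and markers were chosen with earlier results of these data known. Other clusterings, a marker gate on single cells, scalings (TMM by edgeR 4.0.16), filters and thresholds were tried, and the class calculation was tested on simulated data. Each group is 1 library, so no p-values are given, and the number of UMIs limits the precision.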

Additional observations from a re-analysis of the deposited data

Results flagged for a closer look

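In cycling CD8 T cells (13 WT and 25 KO cells) the KO to WT ratios of Junb and Dusp1 were above 1, at 1.83 and 1.81, while they were below 1 in CD8 T cells that were neither naive-like nor cycling (112 WT and 111 KO), at 0.766 (0.670 to 0.876) and 0.593 (0.464 to 0.758). Junb was also below 1 in naive-like CD8 T cells, at 0.481 (0.382 to 0.602). Dusp1 had 9 WT and 8 KO UMIs there, a mean under the 50 CPM minimum, and so was not measured. The difference between these states was not tested. A minimum of 10 cells per library for these subsets was set after their values were seen, and the minimum of 25 used for the compared classes would have left out the cycling CD8 T cells. The 13 WT cells held 48 Junb UMIs and 19 Dusp1 UMIs.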

How the results depend on the processing

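Over the 65 measured pairs, 39 were at least 1.5-fold lower in KO and 0 higher. Without the minimum of 50 CPM the count was 46 lower and 2 higher, the 2 being Fosb and Egr1 in mature DCs (2 there), and CD8 T cells had 4. With a minimum of 200 CPM it was 25 of 47 pairs: 5 in cDC1s, 3 in T cells with neither co-receptor, 3 in CD4 T cells, 1 in mature DCs and 0 in CD8 T cells. With a fold of 2 it was 16: 1 in CD4 T cells, 3 in cDC1s, 0 in cDC2s, 2 in mature DCs, 0 in monocytes and 4 in macrophages. These follow from the construction of the settings. Shares of all measured genes are given here only for a fold of 1.5 and a minimum of 50 CPM, so the counts at other settings have none beside them. Averaging CPM over single cells gave 4 in CD8 T cells, 2 in mature DCs and 1 in monocytes; with classes from a marker gate (the leading marker set with at least 2 UMIs and 3 times the next, a rule loosened after a stricter one left many cells unnamed) 4, 2 and 1, and the Jund ratio in macrophages was 1.12 there. Without the top cell of each library and class mature DCs had 2, without cycling cells CD8 T cells had 4, clustered with the members monocytes had 4, and standardised over clusters CD4 T cells had 3; the cause was not tested. The settings that kept the minimum and the fold gave 34 to 44 pairs lower and 0 higher. Clustering at resolution 1 (43 pairs) and leaving out T cells with over 0.5% antigen-presenting cell UMIs (39 pairs) were added after the data were seen. No paired analysis was possible because each group is 1 library and the labels give no replicate numbers. Depth limits Fosb in every class and Jun, Egr1 and Atf3 in the T cell classes where their levels were under 50 CPM.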
